A study of Homo sapiens with 6 samples.

Results

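The genes described here are 42 components of the WNT pathway, chosen by symbol for their place in the pathway: 8 ligands, 2 genes of WNT secretion, 10 receptors and co-receptors, and regulators from the cell surface to the nucleus. They were followed in TE-1, a human cell line from an oesophageal squamous cell carcinoma. The cells of interest were a TE-1 clone with stable knockdown of EIF3C, a subunit of the translation initiation complex eIF3, and the controls were the parental TE-1 cells. Each group had 3 arrays labelled as biological replicates, and both were grown in the same serum-containing medium. The knockdown arrays share 1 clone, the labels describe no clone with a control construct, and they do not say whether replicates were separate cultures, so p-values measure only the spread between these arrays, which may be technical. A gene was taken from probe sets annotated with exactly 1 gene symbol, and its brightest probe set, averaged over the 6 arrays, stood for it. This gave a value for 39 of the 42 genes, of 18132 genes in all, and 38 passed the filter on low signals, of 13599 genes tested. The ligand gene WNT3 shares its probe sets with a second symbol and is not used, and PORCN and TCF7 had no probe set named for them in the annotation used here.

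WNT ligands are lipid-modified secreted proteins that bind Frizzled (FZD) receptors together with the co-receptors LRP5 and LRP6. Without a ligand, a destruction complex built on AXIN1, AXIN2 and APC holds beta-catenin (CTNNB1) so that the kinase GSK3B can mark it for degradation. With a ligand, Dishevelled (DVL) proteins block that complex, and beta-catenin enters the nucleus and activates genes together with TCF and LEF factors. The pathway also restrains itself, since AXIN2, the receptor-removing ubiquitin ligases RNF43 and ZNRF3, and the secreted antagonist DKK1 are among the genes it is known to induce. In squamous epithelia WNT signals are known for their part in basal and stem cell maintenance.

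The promoters of 4 genes are shown because their products bear on the results below: LEF1 and TCF7L1, the TCF/LEF factors that moved in opposite directions, RNF43, a feedback regulator, and DKK1, the only gene with a match. TCF7L1 and DKK1 were added after their values were seen. Each sequence is from RefSeq on GRCh38.p14 and runs from 250 bases before to 50 bases after a gene start, 5′ to 3′ on the strand of the gene. Capitals mark a match to CTTTGAT or CTTTGAA, forms of the TCF/LEF core, searched on both strands. A further RNF43 window, not shown, held no match. Whether each window is at the main start of its gene was not tested.
LEF1, chr4:108166252-108166551, minus strand: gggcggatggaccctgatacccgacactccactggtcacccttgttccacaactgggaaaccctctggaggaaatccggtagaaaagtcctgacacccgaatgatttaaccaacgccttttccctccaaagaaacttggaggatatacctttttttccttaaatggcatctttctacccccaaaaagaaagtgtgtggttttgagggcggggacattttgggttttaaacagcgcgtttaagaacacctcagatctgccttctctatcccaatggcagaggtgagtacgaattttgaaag
TCF7L1, chr2:85133142-85133441, plus strand: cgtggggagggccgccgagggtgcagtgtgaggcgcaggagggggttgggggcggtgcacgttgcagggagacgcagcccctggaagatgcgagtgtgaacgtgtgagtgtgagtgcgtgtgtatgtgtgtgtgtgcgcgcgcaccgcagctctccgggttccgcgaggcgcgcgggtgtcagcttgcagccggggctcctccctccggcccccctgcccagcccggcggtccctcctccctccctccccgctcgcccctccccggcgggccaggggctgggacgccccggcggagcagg
RNF43, chr17:58417485-58417784, minus strand: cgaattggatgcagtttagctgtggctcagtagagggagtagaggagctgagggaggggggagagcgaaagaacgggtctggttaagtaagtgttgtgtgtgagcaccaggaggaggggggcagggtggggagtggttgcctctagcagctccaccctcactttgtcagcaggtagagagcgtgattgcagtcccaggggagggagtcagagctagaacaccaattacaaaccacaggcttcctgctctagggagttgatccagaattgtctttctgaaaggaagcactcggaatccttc
DKK1, chr10:52314031-52314330, plus strand: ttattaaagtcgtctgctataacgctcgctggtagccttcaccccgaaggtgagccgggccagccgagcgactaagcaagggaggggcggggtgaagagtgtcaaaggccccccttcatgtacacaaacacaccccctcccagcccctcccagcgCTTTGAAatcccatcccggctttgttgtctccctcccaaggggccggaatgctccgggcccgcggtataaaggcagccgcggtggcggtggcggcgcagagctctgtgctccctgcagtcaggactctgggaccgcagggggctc
Of the 42 genes, 29 had a promoter in the table, with 38 starts between them. A match was found in 1 of these 38 windows, that of DKK1, where it begins at base -95 relative to the start, while 6.86% of 35116 windows over all genes held one. The missing matches say only that these letters are not in these windows. The WNT windows were rich in G and C, with a median of 66.3% against 58.7% over all windows. AXIN2 and ZNRF3 had no entry.

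Signals are on a log2 scale, so that a difference of 1 is a 2-fold difference. EIF3C was lower in every knockdown array. Its brightest probe set, which it shares with the near-identical EIF3CL, gave 8.44 ± 0.04 in knockdown and 10.62 ± 0.06 in control (mean log2 signal ± SD, n = 3 each). The knockdown level was thus 22.1% of that in control. Array medians lay between 6.09 and 6.11, and knockdown minus control ran from -0.22 to 0.20 over 85 control probe sets of non-human sequence. Over all genes tested, 32.4% were called higher and 34.1% lower, which is the base for the marker counts that follow. Of 10 squamous epithelial markers 7 had a probe set, of which 1 rose and 3 fell. Those that fell were TRIM29, at 7.95 in knockdown and 8.94 in control (log2 fold change -0.99), the desmosomal cadherin DSG3, at 7.45 in knockdown and 8.14 in control (-0.70), and the adhesion gene PERP, with a log2 fold change of -0.47. The epithelial cadherin CDH1 was at 11.44 in knockdown and 11.21 in control and stratifin (SFN) at 11.00 in knockdown and 10.96 in control. The basal keratins KRT5 and KRT14 were dim, at 6.09 and 5.67 in knockdown and 5.91 and 5.85 in control, so the squamous label was not borne out by these genes alone. Among markers of other cell types, 2 of 6 fibroblast genes were bright enough to test and 1 fell, 4 of 5 endothelial genes were tested, with 1 higher and 1 lower, and 2 of 6 leukocyte genes were tested, with 0 called by limma. The pan-leukocyte gene PTPRC stood at 2.85 in knockdown and 2.87 in control, under the lowest mean tested, 4.63. The part of the marker changes in the WNT results was not tested, and in such bulk RNA a smaller share of cells and less RNA per cell cannot be told apart.

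More WNT genes were lower than higher in the knockdown clone. Of 38 tested, 22 fell and 6 rose (limma with Benjamini-Hochberg over all genes, adjusted p under 0.05), where 34.1% of all genes fell and 32.4% rose. The 22 falls include APC, CTNNB1, DVL3, GSK3B and LRP6, each with a further probe set called higher, and none of the rises had one called lower. When probe sets were averaged per gene, 36 WNT genes were tested, of which 16 fell and 8 rose. In that setting 4447 of 13599 genes fell and 4289 rose. The 28 called genes are 73.7% of the list and compare with 66.5% called over all genes. Changes were small. The median log2 fold change was -0.17, against -0.03 over all genes. It stood at -0.092 when probe sets were averaged, against -0.026 over all genes. The range ran from -1.30 for ZNRF3 to 0.83 for LEF1. At least 2-fold falls were found for 3 genes, ZNRF3, FZD1 and TCF7L1, where 2.22% of all genes fell that far, and at least 2-fold rises for 0, where 2.6% of all genes rose that far. The groups did not overlap for 31 of the 38 genes, against 70.3% of all genes, with all knockdown arrays below control for 24 and above it for 7, against 36.7% and 33.6% of all genes. For 7 of the 28 called genes the change was within 0.22 in size, the most that any non-human control moved. These are 25% of the called WNT genes, near the 23.7% among called genes of the whole table.

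**Figure D1:**
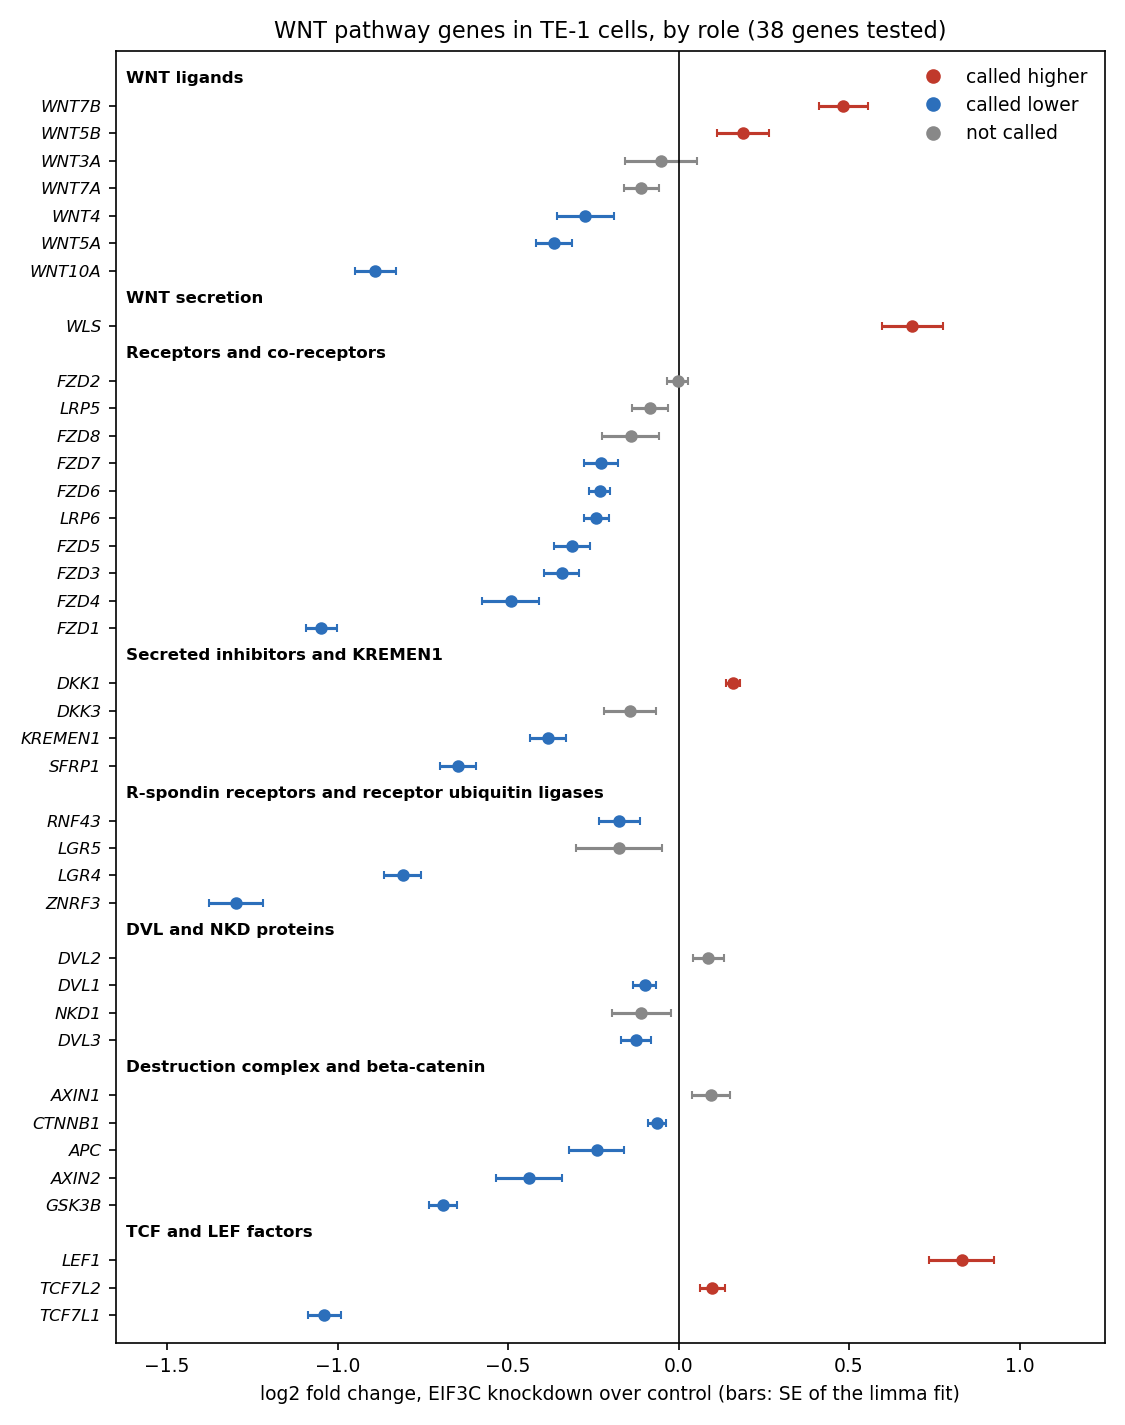
Log2 fold change of knockdown over control for the 38 WNT genes tested, grouped by role, with the standard error of the limma fit as bars. The receptors sit at or below 0, ZNRF3 has the lowest value at -1.30 and LEF1 the highest at 0.83.

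The ligands were split. WNT10A, a ligand of skin and other ectodermal tissues, fell by 0.89 on the log2 scale (SE 0.06, adjusted p = 9.81e-10). Its signal was 6.81, 6.77 and 6.86 in the knockdown arrays, against 7.75, 7.78 and 7.58 in the control arrays. All knockdown arrays lay below all controls by a wide margin. WNT7B, which signals through beta-catenin in several epithelia, rose by 0.48, with 7.31, 7.58 and 7.58 in knockdown and 7.08, 7.01 and 6.93 in control (adjusted p = 1.34e-05). The groups did not overlap, although 1 knockdown array was nearer to the controls. WNT5A, the main ligand of beta-catenin-independent signalling, fell by 0.36, with a mean of 7.45 ± 0.05 in knockdown and 7.81 ± 0.06 in control (adjusted p = 8.39e-06). Of 4 further probe sets of WNT5A, 1 was called lower, at -0.90, and 3 were not called. WNT4 fell by 0.27 (adjusted p = 0.00898), a call lost without knockdown replicate 2 (adjusted p = 0.0596). WNT5B, the close relative of WNT5A, went the other way and rose by 0.19 (adjusted p = 0.0411). That call was lost with no filter (adjusted p = 0.0578) and without knockdown replicate 1 (0.128), knockdown replicate 3 (0.156), control replicate 1 (0.0905) or control replicate 3 (0.0804). WNT3A, at -0.05, and WNT7A, at -0.11, did not pass (adjusted p = 0.69 and 0.0731).

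WLS, the carrier that brings lipidated WNT proteins to the cell surface, rose by 0.68 (SE 0.09, 1.61-fold, adjusted p = 3.09e-06). Its signal was 6.72, 6.51 and 6.58 in knockdown, against 5.79, 6.14 and 5.83 in control. The control arrays were the more spread, with 1 of them higher than the other controls, and still no control reached a knockdown array. All 4 probe sets of WLS were called higher, with log2 fold changes of 0.67 to 1.10.

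Receptors moved mostly 1 way. Of 10 receptors and co-receptors, 7 fell and 0 rose, and the remaining 3 did not pass. The falls are 70% of those tested, where 34.1% of all genes fell and 32.4% rose. FZD1 fell by 1.05 (SE 0.05, 2.07-fold, adjusted p = 3.24e-12), with 7.28, 7.23 and 7.31 in knockdown and 8.34, 8.30 and 8.32 in control. The replicates were tight and the groups far apart, and the further probe set of FZD1 was called lower as well, at -0.30. FZD4, known as the Norrin receptor of retinal vessels, fell by 0.49, with 5.51 ± 0.15 in knockdown and 6.01 ± 0.03 in control (adjusted p = 5.35e-05). Its 2 further probe sets, both dimmer, were not called. Smaller falls were those of FZD3 (-0.34), FZD5 (-0.31), FZD6 (-0.23) and FZD7 (-0.23), with adjusted p at most 0.000759. FZD6, a receptor of planar polarity, averaged 10.17 ± 0.04 in knockdown and 10.40 ± 0.04 in control. Its further probe set, at -0.11, was not called. FZD2 was level, at 9.70 ± 0.01 in knockdown and 9.70 ± 0.04 in control (adjusted p = 0.947), and FZD8, at -0.14, did not pass (adjusted p = 0.153). Among the co-receptors LRP6 was called lower at -0.24 (adjusted p = 1.51e-05), but 2 further and dimmer probe sets were called higher, at 0.41 and 0.33, and the mean of its probe sets turned to 0.16. LRP5, at -0.08, did not pass (adjusted p = 0.174).

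Extracellular inhibitors and their partners went both ways. SFRP1, a secreted decoy that binds WNT proteins, fell by 0.65 (SE 0.05, adjusted p = 7.94e-09). Its signal was 7.14, 7.04 and 7.04 in knockdown and 7.75, 7.73 and 7.69 in control. No array of one group came near the other, and 2 of 3 further probe sets were called lower. DKK1, which blocks LRP5 and LRP6, was bright in both groups and rose by 0.16, with a mean of 11.88 ± 0.02 in knockdown and 11.72 ± 0.02 in control (adjusted p = 2.78e-06). The rise was regular over the arrays, and some non-human controls moved by more. KREMEN1, a surface receptor for DKK1, fell by 0.38 (adjusted p = 7.27e-06), also on 1 of 2 further probe sets, at -0.55. DKK3, a divergent family member, did not pass at -0.14 (adjusted p = 0.116).

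Of 4 genes of the surface system that sets receptor number, 3 fell and 0 rose, where 34.1% of all genes fell and 32.4% rose. ZNRF3, a ubiquitin ligase that removes Frizzled receptors, had the largest change of the list, a fall by 1.30 (SE 0.08, 2.46-fold, adjusted p = 1.92e-10). Its signal was 5.42, 5.16 and 5.30 in knockdown, against 6.64, 6.59 and 6.55 in control. The gap between the groups was several times their spread, and ZNRF3 has 1 probe set, so no second reading was to be had. RNF43, its paralogue, fell by 0.17 (adjusted p = 0.0161), a call lost without knockdown replicate 1 (adjusted p = 0.103) or control replicate 2 (0.0547) and with the mean of its probe sets (0.662). LGR4, a receptor for R-spondins, which counter these ligases, fell by 0.81 (SE 0.05, adjusted p = 7.46e-10). Its signal was 7.53, 7.58 and 7.57 in knockdown and 8.42, 8.45 and 8.24 in control. The groups were well apart, whereas a dim further probe set stood at 0.03 and was not called. LGR5, the stem cell marker of this family, was dim and did not pass, at 4.85 ± 0.24 in knockdown and 5.02 ± 0.23 in control (adjusted p = 0.24).

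**Figure D2:**
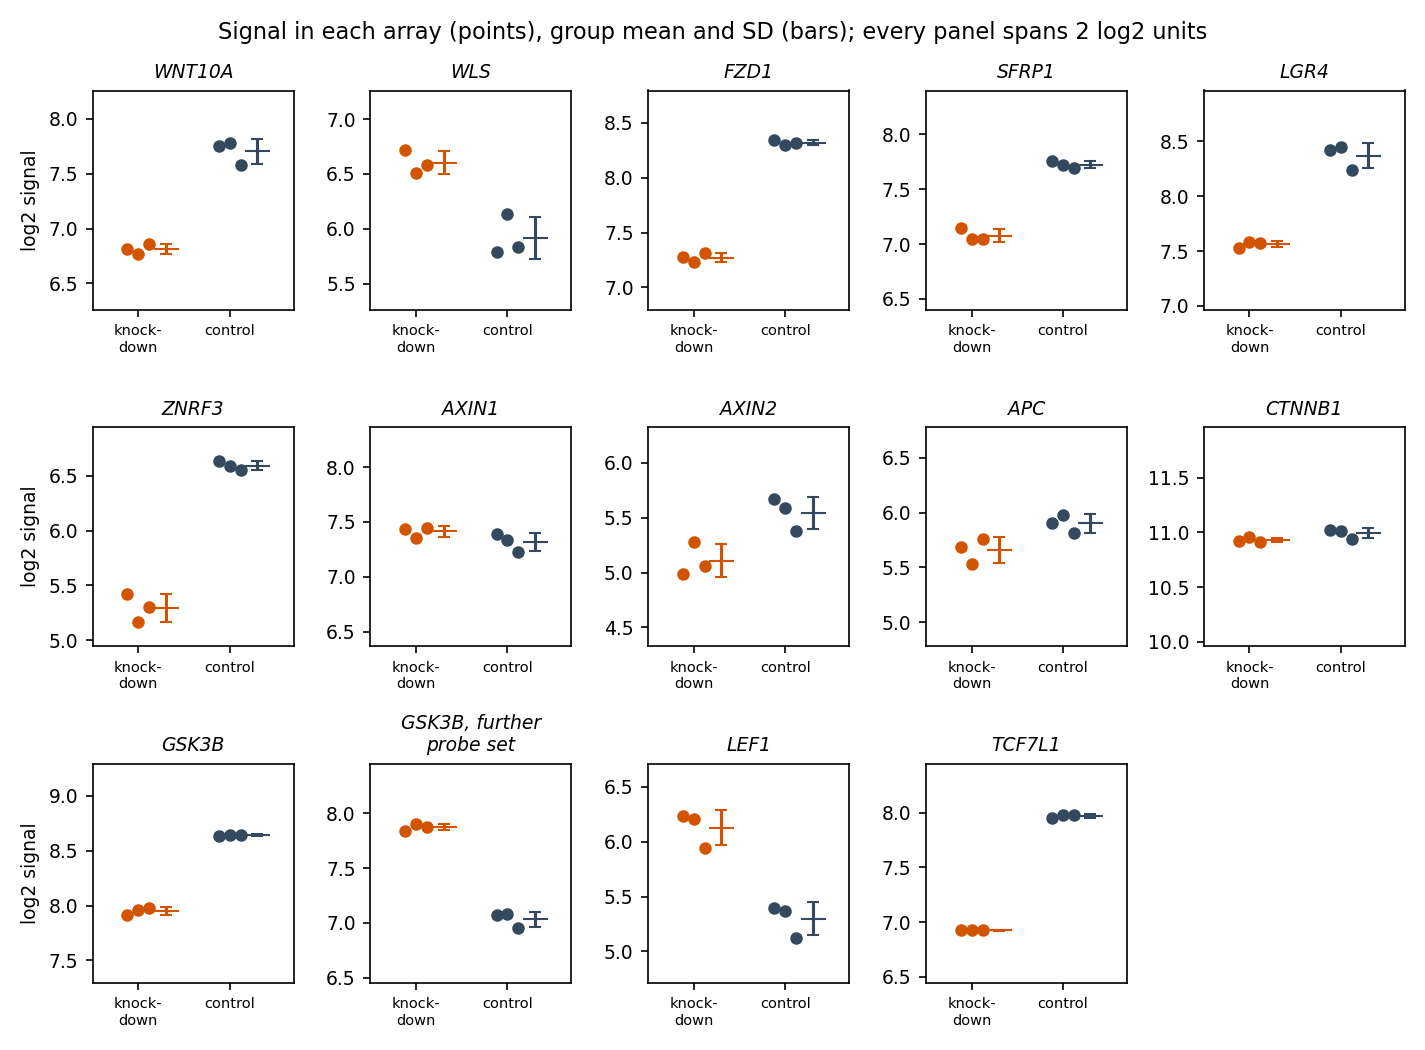
Log2 signal in each array for 13 WNT genes, knockdown left and control right in each panel, with the group mean and SD (n = 3 each), and for GSK3B also its further probe set. The groups separate for every gene shown other than AXIN1 and CTNNB1, and the probe sets of GSK3B move in opposite directions.

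Differences among the DVL and NKD genes were small, between -0.12 and 0.09. DVL1 was called lower at -0.10 (adjusted p = 0.0134), a call lost without knockdown replicate 1 (adjusted p = 0.0643) or control replicate 1 (0.0635). DVL3 was called lower at -0.12 (adjusted p = 0.0179), a call lost without knockdown replicate 3 (adjusted p = 0.067) or control replicate 3 (0.0527). Further probe sets of DVL3, of which 2 hold identical values, were called higher at 0.34, and the mean of its probe sets turned to 0.13, so the direction of DVL3 depends on the probe set. DVL2 did not pass at 0.09 (adjusted p = 0.107). Its probe sets ran from 0.04 to 0.23, and 2 of 3 further ones were not called. NKD1, a DVL-binding inhibitor, did not pass either, at -0.11 (adjusted p = 0.291). NKD2, its paralogue, was left out as dim, at 3.52 ± 0.04 in knockdown and 3.47 ± 0.11 in control.

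Beta-catenin itself was almost level. CTNNB1 gave 10.92, 10.95 and 10.92 in knockdown, against 11.02, 11.01 and 10.94 in control, and the groups overlapped. The difference of -0.06 (SE 0.03) passed narrowly (adjusted p = 0.0408). That call was lost with no filter (adjusted p = 0.0525), with median centring (0.0737), without the intensity trend (0.171), with the mean of probe sets (0.271), and without knockdown replicate 1 (0.113), knockdown replicate 3 (0.121), control replicate 1 (0.137) or control replicate 2 (0.136). Over its 8 probe sets the change ran from -0.25 to 0.19, with calls in both directions.

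Of the scaffolds of the destruction complex, AXIN2 and APC were lower and AXIN1 did not pass. AXIN2 had 4.99, 5.28 and 5.06 in knockdown and 5.67, 5.59 and 5.38 in control, a difference of -0.44 (SE 0.10, adjusted p = 0.000783). The groups did not overlap but came close, 2 dimmer probe sets stood at 0.01 and 0.03, and the call was lost with the mean of probe sets (adjusted p = 0.0981). AXIN1 had 7.44, 7.36 and 7.45 in knockdown and 7.39, 7.33 and 7.23 in control, which overlapped (0.09, adjusted p = 0.152). APC had 5.69, 5.53 and 5.76 in knockdown and 5.91, 5.98 and 5.82 in control, a difference of -0.24 (SE 0.08, adjusted p = 0.0156). The APC groups were nearly adjoining. Its call was lost without knockdown replicate 2 (adjusted p = 0.0911) or control replicate 2 (0.0682) and with the mean of probe sets (0.481), and 1 further probe set was called higher, at 0.30.

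GSK3B, the kinase of the complex, gave opposite answers on its 2 probe sets. The brighter had 7.91, 7.96 and 7.98 in knockdown and 8.63, 8.65 and 8.65 in control, a difference of -0.69 (SE 0.04, adjusted p = 1.19e-10). The dimmer had 7.84, 7.90 and 7.88 in knockdown and 7.07, 7.08 and 6.95 in control, a difference of 0.84 (SE 0.05, adjusted p = 3.86e-09 over all probe sets). Neither probe set overlapped between the groups. The mean of both stood at 0.076 and did not pass (adjusted p = 0.0871), so no direction can be given for the gene as a whole. The part of transcript forms read by each probe set was not tested.

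The TCF and LEF factors, which carry beta-catenin to DNA, moved apart. TCF7L1, known mainly as a repressor of WNT targets, fell by 1.04 (SE 0.05, 2.06-fold, adjusted p = 6.36e-12). Its signal was 6.92, 6.93 and 6.92 in knockdown and 7.95, 7.97 and 7.98 in control. These were among the tightest replicates of the list, and 2 of 2 further probe sets were called lower, at -0.43 and -0.46. LEF1, known mainly as an activator, rose by 0.83 (SE 0.10, 1.78-fold, adjusted p = 6.53e-07), with 6.24, 6.21 and 5.95 in knockdown and 5.40, 5.37 and 5.13 in control. The groups were clearly separate, and 5 of 8 further probe sets were called higher and 0 lower. TCF7L2 rose by 0.10 (adjusted p = 0.0265). This call was lost with quantile normalization (adjusted p = 0.331) and without knockdown replicate 1 (0.131), knockdown replicate 3 (0.0517), control replicate 2 (0.0553) or control replicate 3 (0.0563), while 5 of 6 further probe sets were called higher, up to 0.31.

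Probe sets of the same gene were a second reading for most members. Of the 28 called genes, 24 had further probe sets, which were tested in an unfiltered fit of the 49293 human probe sets. For 15 of these a further probe set was called the same way and none the opposite way. For 4 no further probe set was called, and for 5, namely APC, CTNNB1, DVL3, GSK3B and LRP6, at least 1 was called the opposite way. The remaining 4 called genes, WNT10A, ZNRF3, DKK1 and DVL1, have 1 probe set.

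**Figure D3:**
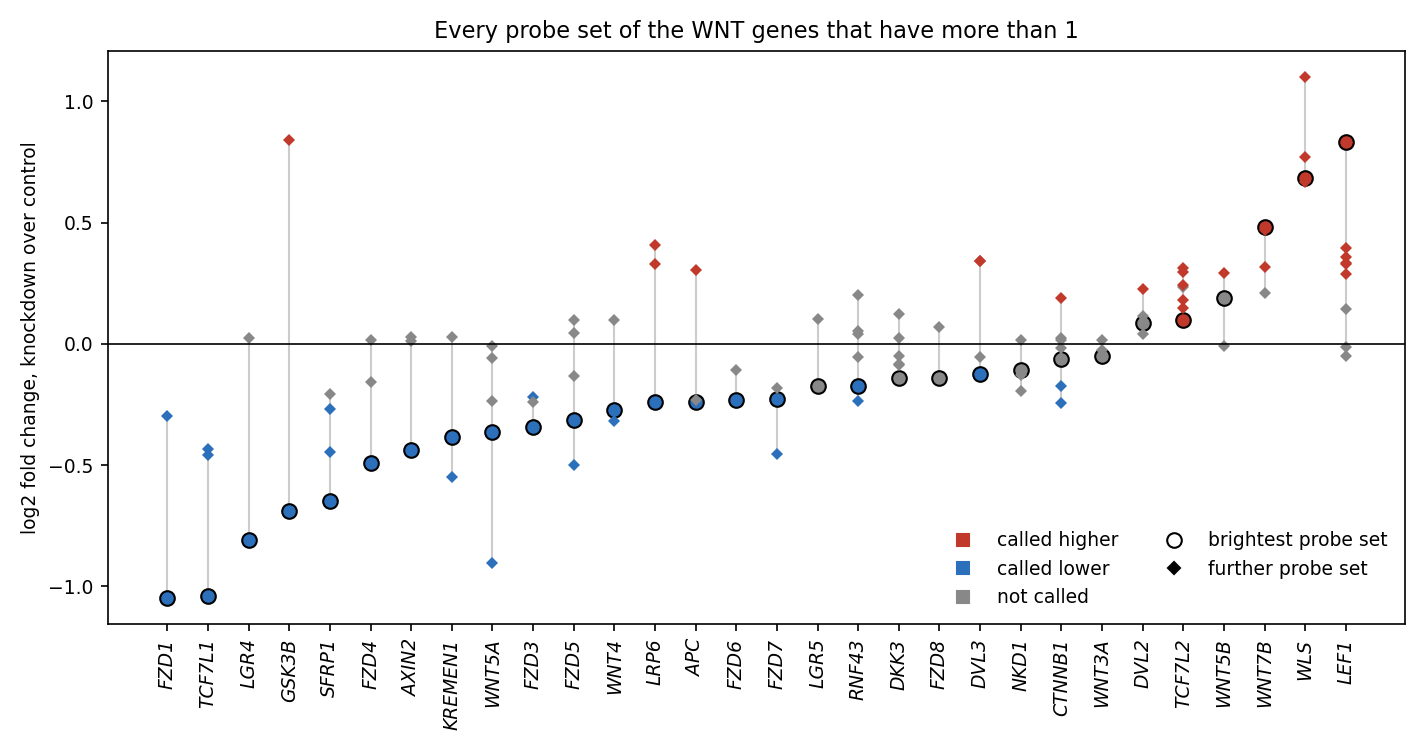
Log2 fold change of every probe set of the WNT genes with more than 1, circles for the brightest and diamonds for further ones, coloured by the call in the fit over all probe sets. GSK3B spans -0.69 to 0.84, while TCF7L1 keeps 1 direction on each of its probe sets and TCF7L2 likewise.

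The rest of the pathway was read from 4 further lists. Of 34 other ligands, receptors and secreted regulators, 18 were tested, and 6 fell and 2 rose (median -0.13). The falls are 33.3% of those tested, near the 34.1% over all genes, and the 44.4% called is below the 66.5% over all genes. PTK7, a co-receptor of planar polarity, fell by 0.60, WNT11 by 0.53, WNT10B by 0.44 and the DKK1 receptor KREMEN2 by 0.38, with adjusted p at most 2.85e-05. The 2 that rose were RSPO4 (0.25) and SOST (0.32), named after their values were seen. The further probe set of SOST was called higher, at 1.93, and that of RSPO4, at -0.12, was not called. Without 1 array the count of rises was 1 (without knockdown replicate 1, control replicate 1 or control replicate 2) or 0 (without knockdown replicate 3).

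Planar polarity and beta-catenin-independent genes were mostly lower. Of 22 tested, 13 fell and 3 rose (median -0.30), against the 34.1% and 32.4% over all genes given above. NFATC1, counted as a fall, had 2 of 4 further probe sets called higher, and MAPK9, counted as a rise, had 1 of 3 called lower. The calcium-dependent kinase gene CAMK2G fell by 1.11, with 8.80 ± 0.01 in knockdown and 9.90 ± 0.01 in control, and the polarity cadherin CELSR2 fell by 0.99. The other way, INVS, known as a switch between the branches of the pathway, rose by 0.76 and the polarity scaffold SCRIB by 0.70. Adjusted p was at most 9.61e-09 for these 4 genes.

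Other cytoplasmic and nuclear components were balanced, with 11 higher and 11 lower of 30 (median 0.02). This is 36.7% each way, near the 32.4% higher and 34.1% lower over all genes. Among the called genes, AMER1, BTRC, CSNK1A1, CSNK1D, SKP1 and TLE3 had a further probe set called the opposite way. The largest changes of the whole list concerned inhibitors of beta-catenin in both directions. CBY1, which binds beta-catenin and moves it out of the nucleus, rose by 1.64, with 10.20 ± 0.08 in knockdown and 8.56 ± 0.01 in control (adjusted p = 1.3e-15), on its only probe set. CTNNBIP1, which keeps beta-catenin from TCF factors, fell by 1.53, with 8.07 ± 0.06 in knockdown and 9.60 ± 0.05 in control (adjusted p = 9.45e-15), on 4 of 4 probe sets. RNF146, a ubiquitin ligase that removes axin, fell by 1.14 and PYGO1, a nuclear co-activator, rose by 0.85 (adjusted p at most 1.41e-07).

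Genes described elsewhere as beta-catenin targets were higher for 11 of 24 genes and lower for 7 (median -0.03). These are 45.8% and 29.2% of those tested, against 32.4% and 34.1% of all genes. At least 2-fold rises were found for 6, where 2.6% of all genes rose that far. FOSL1, an AP-1 subunit, rose by 2.19, the peptide endothelin 1 (EDN1) by 1.63, the tight junction gene CLDN1 by 1.15 and the receptor tyrosine kinase MET by 1.07, with adjusted p at most 1.24e-11. Each of these 4 genes was called higher on every one of its probe sets, and each is known to respond to other pathways as well. The lists were chosen with results of these data known, so their counts describe and do not test.

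**Figure D4:**
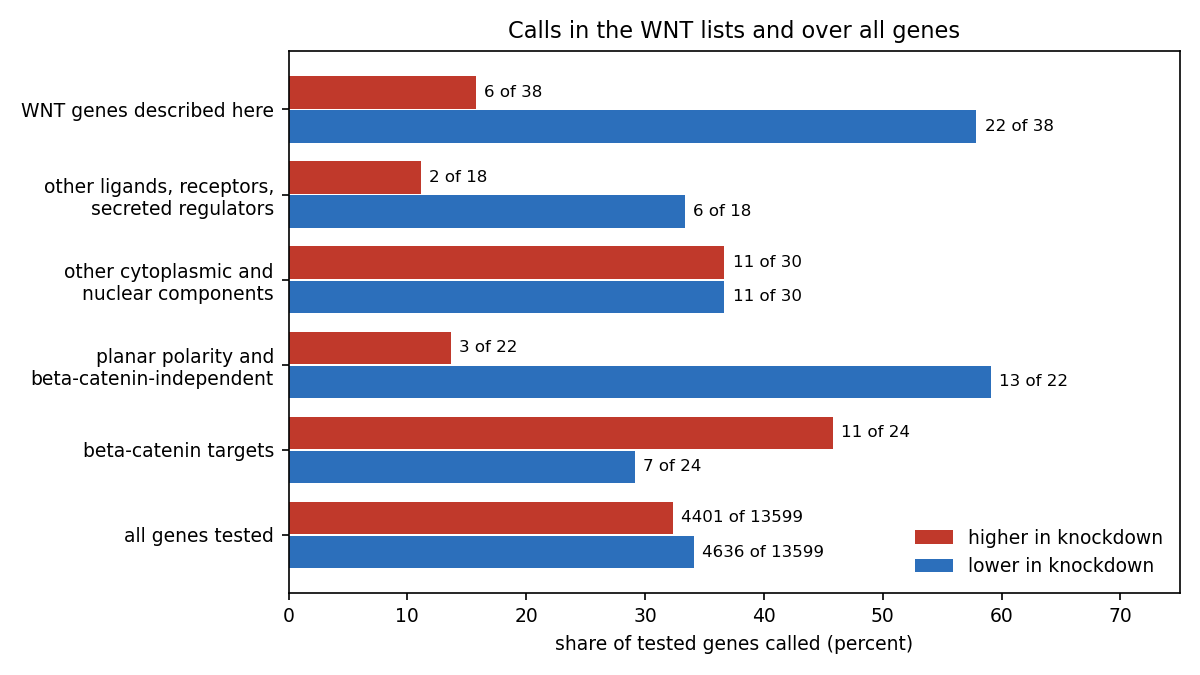
Share of tested genes called higher and lower in knockdown, in percent, for the WNT genes described here, 4 further WNT lists and all genes, with counts at the bars. Lower calls lead in the first list (22 against 6 of 38) and in the planar polarity list (13 against 3 of 22). The 22 include 5 genes with a further probe set called higher.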

How the data were processed

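Biotin-labelled RNA was measured on an Affymetrix array. The authors deposited log2 signals for 49395 probe sets on each array. The submitters' processing notes name MAS5 without a version. How background was corrected, and at which step logs were taken, is not given in the sources used here. That the scale is log2 follows from the range of values. Array medians agreed, so no further normalization was applied, and a change shared by all genes cannot be seen. Detection calls were not used, so no gene is called absent.

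Gene symbols came from the array's platform annotation, and a comparison with RefSeq through Entrez IDs changed 0 symbols. Genes were represented by their brightest probe set, and the lowest 25% by mean were left out. Knockdown and control were compared with limma 3.58.1 in R 4.3.3 (lmFit, eBayes with intensity trend), with Benjamini-Hochberg adjustment over 13599 genes and a threshold of 0.05. On simulated data with the spread of these genes, the fit found 90% of genes changed by 0.5 and 40.5% of those changed by 0.25 (log2). Far fewer genes were changed there than the 66.5% called here, which makes the adjusted threshold stricter. These shares therefore do not carry over to the real fit. Values per array were given for called members that changed by at least 0.5 and for CTNNB1, APC, GSK3B, AXIN1 and AXIN2, with WNT7B added after its values were seen, and the 4 largest called changes were named from each further list. Members, lists and rules were chosen with earlier results of these data known. Alternatives were no filter, a 50% filter, quantile normalization, median centring, the mean of probe sets, no trend, robust eBayes, array weights, a replicate block and each array left out. Replicate numbers are shared by the groups but were not taken to pair them, because the deviations of same-numbered arrays correlated at 0.08, 0.13 and 0.23, not all over 0.1. The number of arrays limits the precision.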

Additional observations from a re-analysis of the deposited data

How the results depend on the processing

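Of the 28 called WNT genes, 17 kept their call and direction under all 15 alternatives in which they were tested, 13 of them lower and 4 higher, and 11 lost it or turned under at least 1. Another 4 genes gained a call under at least 1 alternative, namely WNT7A, DVL2, FZD8 and NKD1. WNT7A gained it under 5, with limma adjusted p from 0.0234 to 0.0395. When probe sets were averaged per gene, 3 called genes turned: LRP6 to 0.16, DVL3 to 0.13 and GSK3B to 0.076. The same setting gave 16 falls and 8 rises among 36 WNT genes tested, and moved the median of the WNT genes to -0.092. It also moved the falls among cytoplasmic and nuclear components to 7 and the rises among other ligands, receptors and secreted regulators to 1. With a 50% filter, which tests fewer genes, 17 of 25 WNT genes tested fell and 3 rose, where 3581 of 9066 genes fell and 3703 rose. The WNT median was then -0.23 and that of all genes turned to 0.0055. Other ligands, receptors and secreted regulators had 0 rises and 3 falls of 5 tested, and 4 of 17 beta-catenin targets tested fell. Leaving out 1 array at a time gave 19 to 22 falls and 4 to 6 rises among the WNT genes, a median of -0.21 to -0.15, and 0 to 2 rises among other ligands, receptors and secreted regulators. With the replicate block, 22 WNT genes fell and 6 rose as without it. All 3 knockdown arrays, but 2 of 3 control arrays, correlated best with the array of their own number. The causes of these changes were not tested. Dim genes such as LGR5, AXIN2 and FZD8 lie near the lower end of the tested signals, where folds are uncertain. LEF1 in control and ZNRF3 in knockdown, both at a mean of 5.30, were also dim, so the size of their folds shares this limit.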

Other observations

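Genes known as feedback targets of beta-catenin were grouped after their values were seen, and the group carries no test. AXIN2, ZNRF3 and RNF43 were lower, with the values given above, but the calls of AXIN2 and RNF43 were lost with the mean of probe sets. SP5, a transcription factor induced by WNT signals, was also lower, at 5.80 ± 0.07 in knockdown and 6.22 ± 0.03 in control (log2 signal, mean ± SD, n = 3 each; limma adjusted p = 5.01e-05), and so was APCDD1, a membrane inhibitor of WNT signals, at 5.32 ± 0.13 in knockdown and 5.74 ± 0.13 in control (limma adjusted p = 0.000565). The further probe set of APCDD1, at -0.20, was not called. In the opposite direction, LEF1 and DKK1 were higher. NKD1, LGR5 and the WNT deacylase gene NOTUM did not pass, NOTUM at 5.71 ± 0.01 in knockdown and 5.71 ± 0.14 in control (limma adjusted p = 0.986). Most of these genes were dim in both groups.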
